A study of Mus musculus with 4 samples.

Results

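The 10 genes Fos, Fosb, Fosl1, Fosl2, Jun, Junb, Jund, Atf3, Egr2 and Myc, which encode AP-1 subunits and other factors of the immediate early response, were examined in mouse mammary epithelial cells with and without depletion of the glucocorticoid receptor (GR). They were chosen by name, with earlier results of these data known, and every array probe annotated to them was taken. They make up 10 of the 28146 gene names on the array, read by 14 probes. EPH-4 cells are a mouse mammary epithelial line that is not tumour-derived. The EV-50 line carries an empty H1-2 vector and is labelled as having normal GR status, and the shGR-19 line carries a vector for an shRNA against GR and is labelled as depleted. Both lines are puromycin-selected colonies, each expanded as 1 stable line, so that clone and GR depletion cannot be told apart. Both were kept without serum in 2 µg/ml puromycin and received no glucocorticoid, so the comparison addressed the receptor in its unliganded state. There were 4 arrays, replicates 1 and 2 of each line, and the labels do not say whether the duplicates came from separate cultures, so p-values measure only the spread between these samples, which may be technical.

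AP-1 is a dimer of basic leucine zipper proteins. FOS family proteins (FOS, FOSB, FOSL1 and FOSL2) pair with JUN family proteins (JUN, JUNB and JUND), and the dimer binds a short palindromic DNA element in promoters and enhancers. FOS, FOSB, JUN, EGR2 and ATF3 are classic immediate early products, made within minutes to hours of growth factor or stress signalling through MAP kinases, and MYC, a basic helix-loop-helix leucine zipper protein that drives growth and ribosome production, follows in the same wave. Ligand-bound GR is known to oppose AP-1 by binding to its subunits, and in mammary epithelium AP-1 takes part in proliferation and involution.

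Sequence before the start site of 4 members is shown because a motif search, given below it, turned on these windows. The windows are the 250 bases before the RefSeq start site in GRCm38.p6, written 5′ to 3′ on the strand of the gene. The window of Fos lies at chr12:85473640-85473889 on the plus strand, that of Fosb at chr7:19310046-19310295 on the minus strand, that of Jund at chr8:70697489-70697738 on the plus strand and that of Egr2 at chr10:67537619-67537868 on the plus strand. Capitals mark a match to the glucocorticoid response element in Jund and to the CArG box, the element of serum response factor, in Egr2.
Fos: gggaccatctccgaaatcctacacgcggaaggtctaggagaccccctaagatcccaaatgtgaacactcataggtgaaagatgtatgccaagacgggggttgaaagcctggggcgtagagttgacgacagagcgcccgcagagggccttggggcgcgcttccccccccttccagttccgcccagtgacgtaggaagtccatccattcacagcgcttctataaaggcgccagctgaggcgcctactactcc
Fosb: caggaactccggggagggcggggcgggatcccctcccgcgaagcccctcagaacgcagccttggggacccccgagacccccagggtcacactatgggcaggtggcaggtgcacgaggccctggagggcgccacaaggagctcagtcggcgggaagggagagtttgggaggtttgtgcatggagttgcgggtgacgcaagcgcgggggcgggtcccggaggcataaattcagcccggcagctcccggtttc
Jund: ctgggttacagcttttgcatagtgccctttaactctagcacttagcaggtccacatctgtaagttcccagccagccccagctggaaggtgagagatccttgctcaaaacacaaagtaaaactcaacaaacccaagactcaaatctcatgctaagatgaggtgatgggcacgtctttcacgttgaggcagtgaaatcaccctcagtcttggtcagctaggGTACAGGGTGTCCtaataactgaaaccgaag
Egr2: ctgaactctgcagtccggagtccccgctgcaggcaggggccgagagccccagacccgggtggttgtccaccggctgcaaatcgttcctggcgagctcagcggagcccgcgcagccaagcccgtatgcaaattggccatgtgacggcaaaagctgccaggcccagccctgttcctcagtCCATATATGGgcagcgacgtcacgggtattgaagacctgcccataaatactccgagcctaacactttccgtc

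A RefSeq promoter window was listed for 8 of the 10 members, 12 windows in all, of 250 bases before and 50 after the start site. Fosl1 and Myc had no window. The 5 palindromic motifs named here were searched in the whole windows, so that 1 scan covers both strands. The AP-1 site TGANTCA was in 7.81% of the 32851 windows of all genes, the cyclic AMP response element TGACGTCA in 1.79%, the glucocorticoid response element in 0.475%, the CArG box in 1.63% and the E-box CACGTG, bound by MYC and its partners, in 7.15%. Jund held the glucocorticoid response element, 31 bases before its start site. Of the 5 windows of Egr2, 4 held a CArG box, that shown above 72 bases before the start, and the other held an E-box. The windows starting at chr10:67537619, 67537620 and 67537680 overlap and hold the same CCATATATGG, so these matches are not separate sites. The window starting at 67537316 held CCTTTTTTGG. The windows of Fos, Fosb, Fosl2, Jun, Junb and Atf3 held none of these letters, which says nothing of sites further away. The Fos and Fosb windows, without a match, are shown because these members were called in the authors' table of log2 values. That was 2 of 14 member probes, against 11.6% of all probes.

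The scanner arrays did not separate by line as the columns of the value table did, which touches every value here. Over 10267 probes detected on all arrays and brighter than the 75th percentile, the SD of the log2 difference between the 2 lines was, in the scanner files, 0.080 for the arrays labelled replicate 1, 0.446 for those labelled replicate 2, and it was 0.516 between the EV-50 duplicates and 0.621 between the shGR-19 duplicates. In the table of log2 values made by the authors from the same samples, the SD was 0.096 between the EV-50 columns, 0.085 between the shGR-19 columns and 0.443 and 0.447 between the lines. The difference between the lines in the table correlated with that of the scanner arrays labelled replicate 2 at r = 0.95 for both replicate numbers, and with that of the arrays labelled replicate 1 at 0.13 and 0.11 (a description across probes, which are not independent). The 4 probes for Nr3c1, the gene of GR, fell by 1.41 to 1.94 on the log2 scale in the table (limma adjusted p from 0.00215 to 0.00539), and were lower by differences of -1.47 to -1.95 between the scanner arrays labelled replicate 2 but of only -0.20 to -0.35 between those labelled replicate 1. Each member is therefore given from both sources and for each pair of scanner arrays, and the arrays are named as they are labelled. Whether every scanner file holds the array of the sample it is labelled with could not be settled here, and each scanner difference between the lines, with its p, rests on those labels. Of 11 epithelial markers, 10 were well above background on all 4 arrays and none was below it on all, with a summed level, as multiples of the 75th percentile signal, of 850 to 989 in EV-50 and 802 to 1025 in shGR-19. Of 7 fibroblast markers, 2 were measured well enough to be tested, with Dcn not well above background on any array, and the summed level was 1.83 and 3.12 on the EV-50 arrays and 1.64 and 34.4 on the shGR-19 arrays, the highest on the array labelled replicate 2, mostly from Col1a2, a collagen gene. Their part in the results was not tested. In RNA of whole cultures, fewer cells that express a gene and less RNA per cell cannot be told apart.

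All 14 member probes were well above background on all 4 arrays and none was saturated. From the scanner arrays 0 of 14 member probes passed an adjusted p of 0.01, where 0% of all 24436 probes did (limma, 209 of all probes and 0 members at an unadjusted p below 0.05, and 0 of all probes called by the other tests run). In the table of the authors, 2 of 14 passed, Fos and Fosb, against 11.6% of all probes, and 1 of them, Fos, differed by more than 2-fold, against 4.26%. At an adjusted p below 0.05, 9 of 14 passed in the table, against 36.5% of all probes, and 8 of these were higher in shGR-19, against 18.3%. The median log2 difference, shGR-19 minus EV-50, was 0.27 over the member probes and 0.01 over all probes in the table, and 0.15 and 0.02 in the scanner files. With any 1 array left out, 0 members passed 0.01 in either source (limma), and neither did any of the 24436 probes. At an unadjusted p below 0.05 there were then 6 to 7 members in the table, against 37.1% to 40.2% of all probes, and 0 to 2 in the scanner files, against 0.81% to 4.28%.

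**Figure D1:**
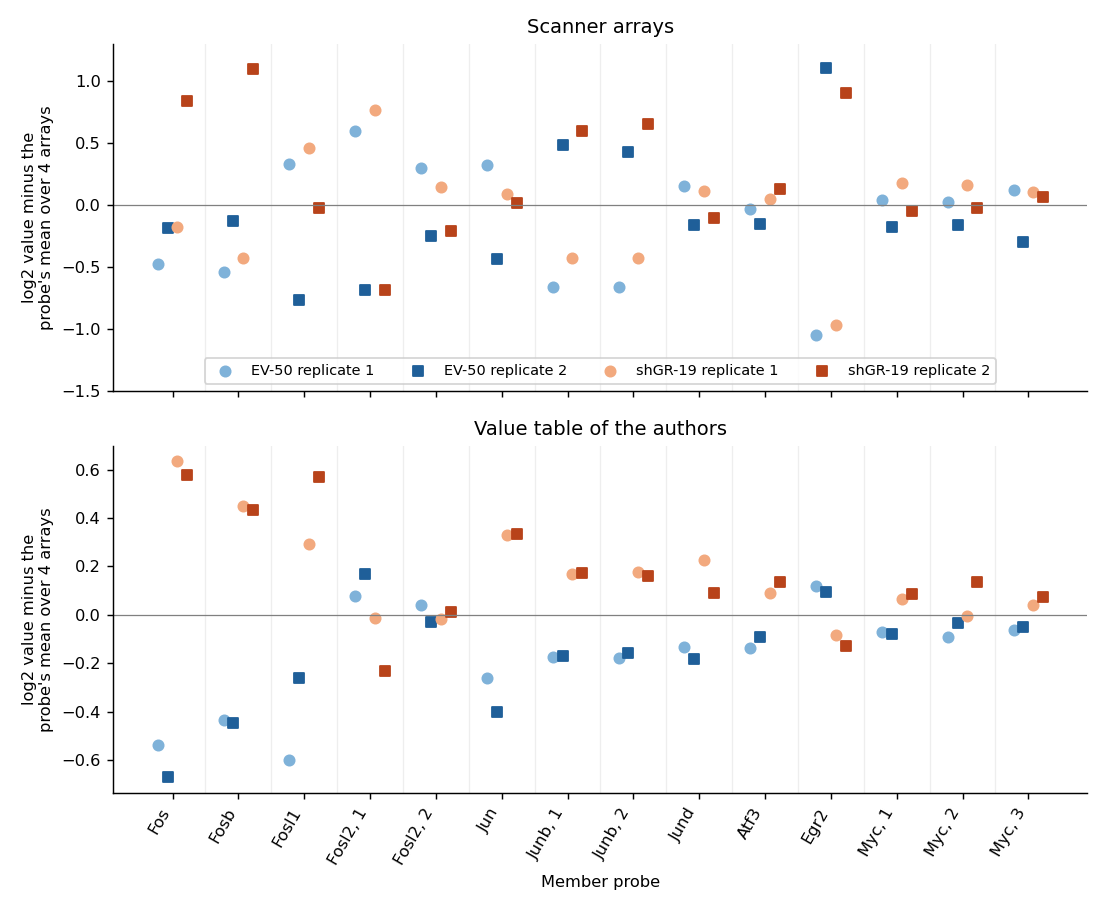
Log2 value of each of the 14 member probes on each of the 4 arrays, minus the probe's mean over the arrays, in the scanner files (upper) and the value table (lower). Blue is EV-50 and orange is shGR-19, circles are replicate 1 and squares replicate 2, and probes of 1 gene are numbered in the order of their identifiers. In the table, 11 probes had both shGR-19 values above both EV-50 values and 2 had both below, whereas in the scanner files only 2 probes separated the lines, Fos by 0.0067.

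Both shGR-19 values lay above both EV-50 values for 11 of 14 member probes in the table, against 36.6% of all probes, and below for 2, against 35.3%. The exception was the brighter of the Fosl2 probes. In the scanner files the lines did not overlap for Fos and Atf3, higher in shGR-19, against 11.7% of all probes, and for 0 members lower, against 6.14%. For Fos that gap was 0.0067 on the log2 scale, far below the spread of its spots, and its signals before scaling did overlap.

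Among the FOS family, Fos and Fosb were higher in shGR-19 in the value table. For Fos, the founding member of the family (1 probe at mm9 chr12:86817900-86817959, spotted 10 times on each array), the mean background-subtracted signal, not yet scaled between arrays, was 45.3 and 61.0 on the EV-50 arrays labelled replicate 1 and 2, and 54.1 and 123 on the shGR-19 arrays. The array labelled shGR-19 replicate 2 was thus the high one, and the other 3 lay close together. Spots of Fos ranged from 52.6 to 65.5 on EV-50 replicate 2 and from 107 to 132 on shGR-19 replicate 2, with no overlap, but from 31.2 to 52.8 and 49.8 to 61.9 on the arrays labelled replicate 1, which overlapped. The scanner difference was 0.66 ± 0.41 on the log2 scale (standard error, n = 2 arrays per line, limma adjusted p = 1.00), made of 0.30 between the arrays labelled replicate 1 and 1.02 between those labelled replicate 2, and it was 0.35 with normexp background correction. In the value table the centred log2 values were -0.56 and -0.69 in EV-50 and 0.61 and 0.56 in shGR-19. The table difference of 1.21 ± 0.071 was a 2.31-fold increase (limma adjusted p = 0.00457), larger than the spread between the duplicates.

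Fosb, which encodes a further partner of JUN proteins (1 probe at mm9 chr7:19888477-19888536), gave signals of 52.0 and 76.4 on the EV-50 arrays and 54.9 and 178 on the shGR-19 arrays. Again only the array labelled shGR-19 replicate 2 stood apart, and the lines overlapped. The pair differences were 0.11 and 1.23 for replicate labels 1 and 2, for a scanner estimate of 0.67 ± 0.57 (limma adjusted p = 1.00), or 0.42 with normexp. The table values were -0.43 and -0.45 in EV-50 and 0.45 and 0.43 in shGR-19. The table difference was 0.88 ± 0.046, a 1.85-fold increase (limma adjusted p = 0.00394).

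Fosl1 encodes FRA-1, an AP-1 subunit often abundant in motile epithelial cells. Its probe at mm9 chr19:5455496-5455555 gave 1519 and 786 on the EV-50 arrays and 1626 and 1304 on the shGR-19 arrays. The low array was EV-50 replicate 2, unlike Fos and Fosb, for which shGR-19 replicate 2 was high. The pair differences were 0.13 and 0.74. In the table the values were -0.62 and -0.28 in EV-50 and 0.28 and 0.55 in shGR-19, a difference of 0.86 ± 0.17 (limma adjusted p = 0.0330). The size was close to that of Fosb, but the duplicates were wider apart (SD 0.24 and 0.19, against 0.0088 and 0.013 for Fosb), and the difference did not pass 0.01.

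Fosl2 encodes FRA-2, the other late FOS family member, and was read by 2 probes 4536 bases apart. The brighter, at mm9 chr5:32459624-32459683, gave 698 and 527 in EV-50 and 614 and 538 in shGR-19, and its table difference was -0.01 ± 0.054 (limma adjusted p = 0.932). The dimmer, at mm9 chr5:32455088-32455147, gave 82.0 and 37.3 in EV-50 and 89.9 and 36.8 in shGR-19. On that probe the arrays split by replicate label and not by line, with nearly equal values in the lines within each label. Its table difference was -0.25 ± 0.099 (limma adjusted p = 0.142), so neither probe of Fosl2 showed a difference past the threshold, and the scanner pairs gave 0.17 and -0.00 for the dimmer and -0.15 and 0.05 for the brighter probe.

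**Figure D2:**
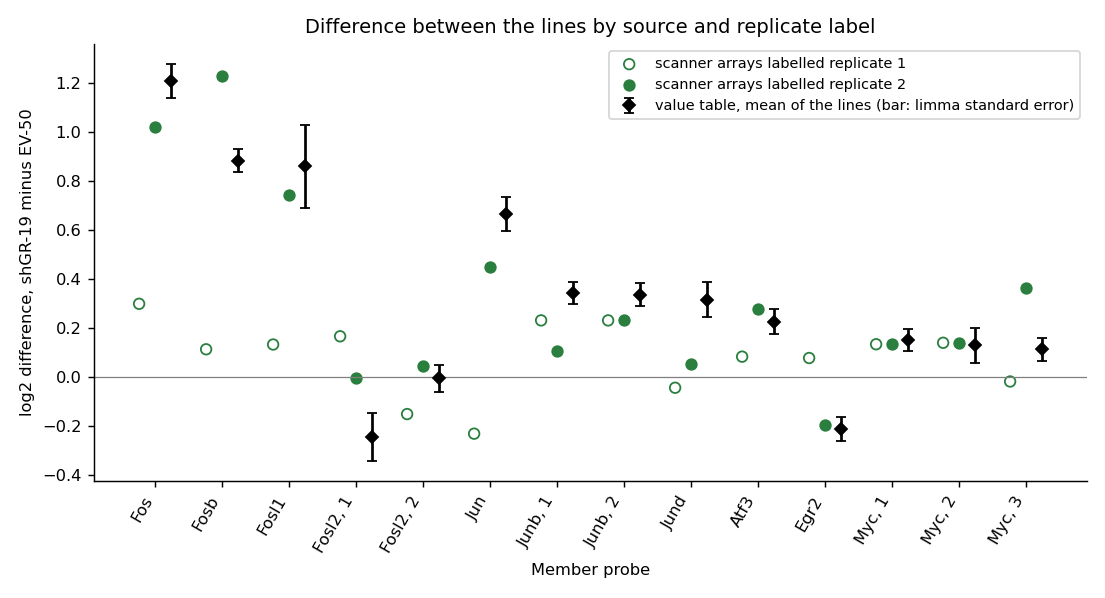
Log2 difference, shGR-19 minus EV-50, of the 14 member probes between the scanner arrays labelled replicate 1 (open green), those labelled replicate 2 (filled green) and in the value table (black, with the limma standard error, n = 2 columns per line). For Fos, Fosb and Fosl1 the replicate 2 arrays gave 1.02, 1.23 and 0.74 and the table gave 1.21, 0.88 and 0.86, while the replicate 1 arrays gave 0.30, 0.11 and 0.13.

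In the JUN family the table differences ran from 0.31 to 0.66, and none passed the threshold. Jun, whose product is the main transactivating partner of FOS (10 spots of 1 probe at mm9 chr4:94715864-94715923), gave 148 and 97.1 on the EV-50 arrays and 123 and 131 on the shGR-19 arrays. The 2 EV-50 arrays thus lay on both sides of the shGR-19 arrays, and the pair differences, -0.23 and 0.45, had opposite signs. The spots of EV-50 replicate 2, 89.6 to 106, did not overlap those of shGR-19 replicate 2, 128 to 135. In the table Jun was -0.30 and -0.44 in EV-50 and 0.30 and 0.30 in shGR-19, a difference of 0.66 ± 0.070 and 1.59-fold, with a limma adjusted p of 0.0103, just outside the threshold. It lay beyond the spread of the duplicates (SD 0.10 in EV-50 and 0.0026 in shGR-19) without passing at 0.01.

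Junb, whose product can temper JUN activity, was read by 2 probes that share 22 bases, at mm9 chr8:87500843-87500902 and chr8:87500881-87500940, so that they are not independent. The brighter probe gave 17366 and 40779 on the EV-50 arrays and 19911 and 47441 on the shGR-19 arrays, and the dimmer 5012 and 12284, and 5746 and 13093. On both probes the arrays labelled replicate 2 were above those labelled replicate 1 in either line. The log2 differences were 1.08 and 1.09 on the brighter and 1.15 and 1.02 on the dimmer probe. The lines differed by 0.23 in each pair on the brighter probe and by 0.23 and 0.11 on the dimmer. In the table both probes differed by 0.34, with limma adjusted p of 0.0164 and 0.0153, and the columns of a line were at most 0.02 apart. The step between replicate labels in the scanner files was therefore not present between the table's columns.

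Jund, the JUN family member typical of resting cells, had its probe at mm9 chr8:73224436-73224495, with signals of 26905 and 23917 in EV-50 and 25486 and 24587 in shGR-19. The scanner estimate was 0.00 ± 0.24, with pair differences of -0.05 and 0.05. The table gave 0.31 ± 0.071 (limma adjusted p = 0.0444), from -0.11 and -0.16 in EV-50 and 0.25 and 0.11 in shGR-19. For this gene, whose window above carries the match to the glucocorticoid response element, the scanner arrays labelled replicate 2 gave a smaller difference than the table.

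Atf3, a stress-induced factor that dimerizes with JUN proteins, gave signals of 994 and 1015 in EV-50 and 1028 and 1220 in shGR-19 (probe at mm9 chr1:192994547-192994606). After scaling, both shGR-19 arrays lay above both EV-50 arrays, with pair differences of 0.08 and 0.28 and an estimate of 0.18 ± 0.21 (limma adjusted p = 1.00). The table gave 0.23 ± 0.051 (limma adjusted p = 0.0438), a value close to that of the scanner files with a narrower error. In both sources the lines did not overlap for Atf3, by a gap of 0.08 in the scanner files.

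Egr2 encodes a zinc finger factor induced through serum response factor. Its 10 spots (probe at mm9 chr10:67004758-67004817) averaged 52.5 on EV-50 replicate 1, 253 on EV-50 replicate 2, 53.2 on shGR-19 replicate 1 and 219 on shGR-19 replicate 2. The level followed the replicate label and not the line, with a step of 2.15 on the log2 scale between the EV-50 arrays and 1.87 between the shGR-19 arrays, the largest such step of the 14 probes. No spot of a replicate 1 array, at most 77.0, reached the lowest spot of a replicate 2 array, 205. Between the lines the pairs differed by 0.08 and -0.20, and the scanner estimate was -0.06 ± 0.99. In the table Egr2 was 0.12 and 0.09 in EV-50 and -0.09 and -0.13 in shGR-19, a difference of -0.21 ± 0.049 (limma adjusted p = 0.0456), the only member probe with a negative difference at an adjusted p below 0.05.

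**Figure D3:**
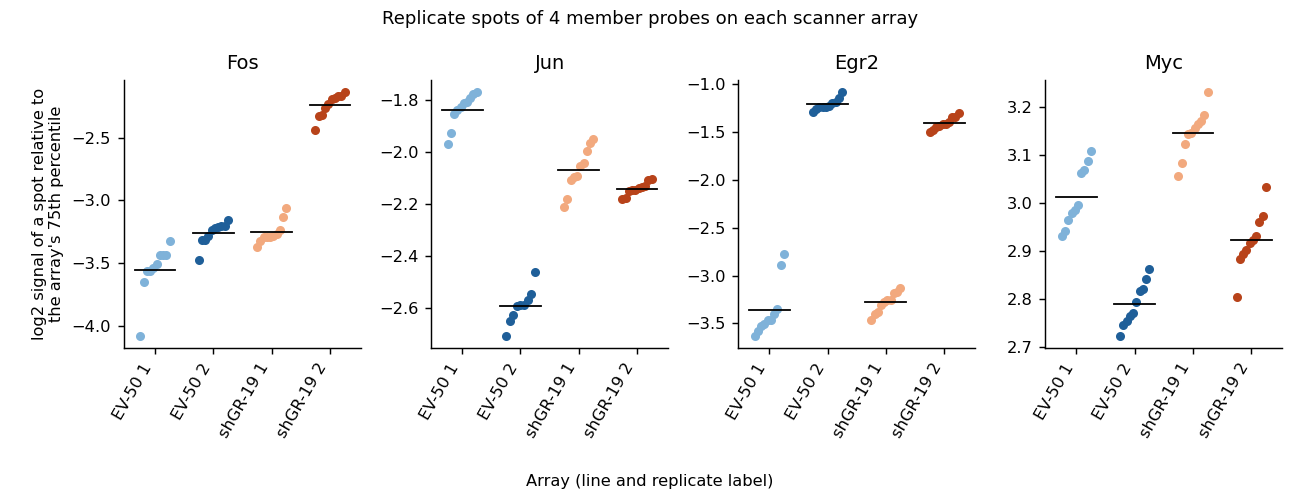
Log2 signal of every replicate spot, scaled to the 75th percentile of its array, for the probes of Fos, Jun, Egr2 and Myc that were spotted 10 times (9 spots of Jun on EV-50 replicate 2 after 1 was left out as an outlier). Points are spots, bars their mean, and the vertical scale differs between panels. Egr2 split by replicate label, Fos was high on shGR-19 replicate 2 alone, and the 4 arrays of Myc had means from 2.79 to 3.15.

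Myc had 3 probes that do not overlap, and none showed a difference past the threshold. The brightest, with 10 spots at mm9 chr15:61821516-61821576, gave 4265 and 4044 in EV-50 and 4568 and 4394 in shGR-19. The other 2, at chr15:61821417-61821476 and chr15:61820925-61820984, gave 2126, 2070, 2287 and 2254, and 576, 478, 555 and 609, in the same order. On the brightest probe shGR-19 was above EV-50 by 0.13 within each pair, less than the step of -0.22 between the replicate labels of either line. The table differences were 0.15 ± 0.046, 0.13 ± 0.073 and 0.11 ± 0.047 (limma adjusted p = 0.0832, 0.251 and 0.153). All 3 probes of Myc thus gave positive differences between 0.11 and 0.15 in the table.

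Other genes of the pathway were taken in 7 lists, of which 145 of 161 genes were tested by their brightest probe. In the scanner files 0 of the 145 passed an adjusted p of 0.01, and 1 had an unadjusted p below 0.05 (limma). In the value table, 41 passed, 25 higher and 16 lower in shGR-19, against 12.6% of all 16755 genes (6.1% higher and 6.51% lower), and 17 of them by more than 2-fold, against 4.86%. With any 1 column left out, 0 of the 145 passed, as did 0 of all 24436 probes (limma). By list, in the order below, 25%, 22.2%, 38.9%, 27.3%, 52.4%, 15.4% and 16.7% of the tested genes passed in the full table, against 12.6% of all genes. The lists were chosen with earlier results of these data known, so these shares are not independent of the data. The counts and medians below describe the lists, and are not a test of them.

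Of 20 basic leucine zipper partners and relatives of AP-1, 4 rose and 1 fell in the table, with a median difference of 0.19 against 0.02 over all genes. Ddit3, the stress factor CHOP, rose by 1.27 ± 0.075 (limma adjusted p = 0.00462), with 0.42 and 1.13 in the scanner pairs. Atf5, a relative of ATF4, rose by 1.06 ± 0.057 (limma adjusted p = 0.00411), with 0.36 and 0.88. Both differed more between the arrays labelled replicate 2, as the 10267 brighter probes did as a whole (SD 0.446 against 0.080).

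Of 27 kinases and factors upstream, 4 rose and 2 fell, with a median of 0.04. Mkl2, a coactivator of serum response factor, rose by 1.14 ± 0.076 (limma adjusted p = 0.00524), and Braf, a RAF kinase above ERK, fell by 1.09 (standard error 0.076, limma adjusted p = 0.00563). Their scanner pairs were 0.18 and 1.04 for Mkl2 and -0.06 and -0.83 for Braf.

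Of 18 feedback inhibitors, 7 rose and 0 fell, with a median of 0.40. At an unadjusted p below 0.05, 9 were higher and 3 lower (limma), where 48.4% of all probes passed in the table. Dusp1, a MAP kinase phosphatase that ligand-bound GR is known to induce, rose by 1.47 ± 0.092 (limma adjusted p = 0.00486), although its scanner pairs were -0.19 and 1.09. Spry2, an inhibitor of receptor tyrosine kinase signalling, rose by 1.23 ± 0.10 (limma adjusted p = 0.00752), with 0.16 and 0.90. Dusp6, the ERK phosphatase, rose by 1.20 ± 0.050 (limma adjusted p = 0.00326), with 0.18 and 1.08 in the scanner pairs. The median of this list was above the 0.33 of the 10 member genes by their brightest probes.

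Of 22 other immediate early genes, 3 rose and 3 fell, with a median of -0.10, below that of the members. Arc, an activity-induced cytoskeletal gene, fell by 1.45 (standard error 0.055, limma adjusted p = 0.00292), and Ctgf, a matricellular growth regulator, fell by 1.37 (standard error 0.060, limma adjusted p = 0.00336). Neither went the way of Fos and Fosb. The scanner pairs were 0.04 and -1.58 for Arc and 0.09 and -1.41 for Ctgf. Both genes were thus nearly equal between the lines only on the arrays labelled replicate 1.

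Of 21 genes known as AP-1 targets, 7 rose and 4 fell, with a median of 0.26. Ccl2, a monocyte chemokine, fell by 3.84 (standard error 0.076, limma adjusted p = 0.00177), and Il1rl1, the receptor of interleukin-33, rose by 3.50 ± 0.12 (limma adjusted p = 0.00279). Vim, an intermediate filament gene of mesenchymal cells, rose by 1.82 ± 0.18 (limma adjusted p = 0.00947), and Mmp10, a stromelysin, by 1.35 ± 0.064 (limma adjusted p = 0.00359). Between the scanner arrays labelled replicate 1 and 2, Ccl2 gave -0.31 and -3.64, Il1rl1 -0.54 and 3.43, Vim 0.33 and 2.02, and Mmp10 -0.21 and 1.27. For Il1rl1 and Mmp10 the arrays labelled replicate 1 thus went the other way. The scaled log2 scanner signal of Vim was low throughout, -3.60 and -5.13 in EV-50 and -3.27 and -3.11 in shGR-19. That of Ccl2 was 2.02 and -1.77 in EV-50 and 1.71 and -5.40 in shGR-19, so the lowest value was a dim one. Both probes were well above background on all arrays. How far the Vim and Ccl2 differences depend on the background correction was not tested. The called targets of this list moved in both directions. Any link to the 2 called AP-1 members, both higher in shGR-19, was not tested. Beside this list stand the fibroblast markers, whose 2 tested genes rose with a median of 2.22.

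The 13 MYC partners and antagonists had 0 rises and 2 falls and a median of -0.09. The 24 MYC targets had 0 rises and 4 falls and a median of -0.11. The shares called, 15.4% and 16.7%, were near the 12.6% of all genes. At an unadjusted p below 0.05, 4 and 3 genes were higher and 2 and 10 lower (limma), where 48.4% of all probes passed in the table. Ccnd2, a D-type cyclin gene, was the MYC target named by the rule and fell by 1.00 (standard error 0.061, limma adjusted p = 0.00474), with scanner pairs of 0.08 and -0.94. Myc itself had positive table differences on all 3 probes, none past the threshold.

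**Figure D4:**
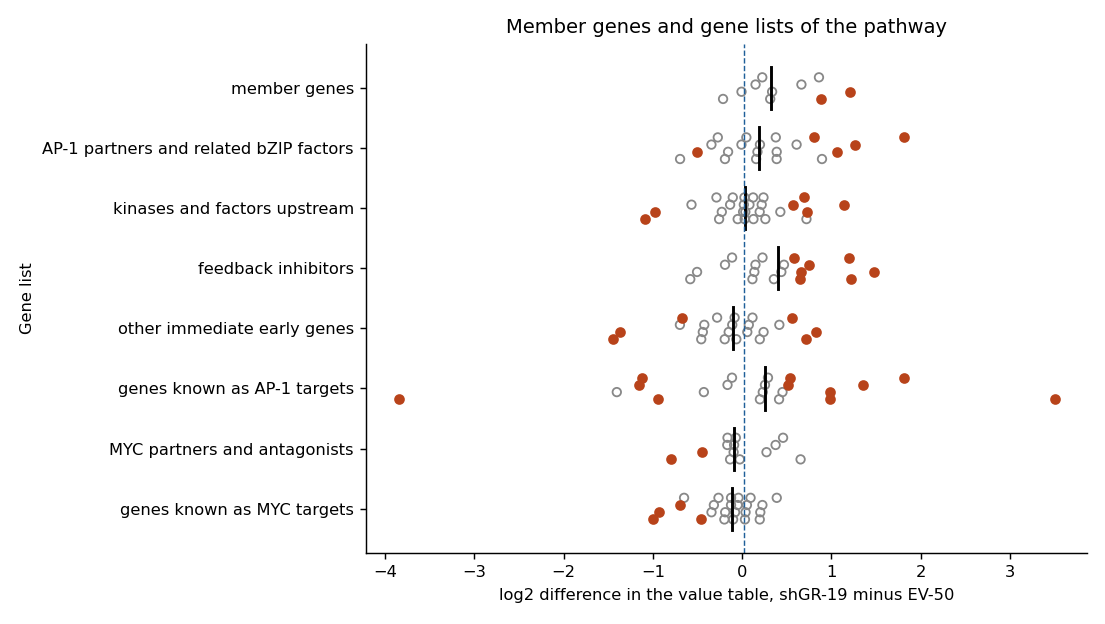
Log2 difference in the value table, shGR-19 minus EV-50, of the 10 member genes and of each gene of the 7 pathway lists, by the brightest probe. Filled points passed an adjusted p of 0.01, open points did not, the black bar is the median of the list and the dashed line the median of all 16755 genes (0.02). Feedback inhibitors had the highest median of the lists, 0.40, with 7 of 18 called higher and 0 lower, against 6.1% and 6.51% of all genes.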

How the data were processed

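RNA of 2 EPH-4 lines (2 arrays each, 300 ng labelled with Cy3) was hybridized to Agilent Whole Mouse Genome 4x44K arrays. All were on 1 slide read in 1 scan, so neither slide nor scan could be fitted as a batch. The replicate number was fitted only as an alternative. The authors deposited scanner output of Agilent Feature Extraction 10.5.1.1, whose background-subtracted spot intensity was not scaled between arrays. The deposited table holds log2 values from GeneSpring GX, centred on each probe's median over the arrays. The column medians were 0.08 and 0.04 for EV-50 and -0.06 and -0.06 for shGR-19. The regression of scanner on table differences had slopes of 0.96 and 0.95 for the arrays labelled replicate 2, near those of log2 values in the same direction, but of 0.024 and 0.020 for the arrays labelled replicate 1, so scale and direction rest on the former. Which scaling GeneSpring applied is not given in the sources used here.

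Processed signals were log2-transformed and scaled to the 75th percentile of each array (528, 584, 516 and 579). Control spots and outliers were dropped, and the remaining spots of a probe were averaged. A probe was kept if both arrays of either line had it well above background (24436 of 41174). Differences between the lines were fitted in limma 3.58.1 under R 4.3.3 (lmFit, eBayes, Benjamini-Hochberg over all kept probes) in both sources, and called at an adjusted p below 0.01. The step was tested only on simulated data with independent noise on each array. Same-numbered scanner arrays instead deviated together (r = 0.57 across probes), so that test does not cover this feature of the data. An exact permutation of 2 against 2 cannot go below p = 0.333, so none was used. The number of arrays limits the precision.

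A gene was read by its brightest kept probe, and every probe of a member is given. Of each list, up to 4 genes were named, with the largest difference among those called in the table with more than 2-fold and well above background on all arrays. The members and lists were chosen with earlier results of these data known. Probe positions are those of mm9 in the array annotation. Promoters are from RefSeq (GRCm38.p6).

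Alternatives were normexp with an offset of 50, quantile normalization, the percentile over detected probes, all probes, probes detected on all arrays, a robust prior with a trend on intensity (by statmod 1.5.0), the replicate block, each array left out, a plain t-test, an adjusted p below 0.05 and the mean of a gene's probes. Marker lists of 6 cell types were read by detection and summed level.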

Additional observations from a re-analysis of the deposited data

How the results depend on the processing

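In the scanner files 0 member probes passed under all alternatives but the value table itself, which gave 2, and 41 for the genes of the pathway lists. In the value table the count of 2 members became 0 with all probes kept (43 of all 41174 probes called). It also became 0 with the replicate block (0 of all 24436) and with the adjusted plain t-test (23 of all). It was 5 with only probes detected on all arrays (23.0% of all) and 8 with an intensity trend and robust prior (32.9% of all). At an adjusted p below 0.05 it was 9 (36.5% of all). The plain t-test gave 5 at an adjusted p below 0.05, against 17.1% of all. At an unadjusted p below 0.05 it gave 9, against 40.1% of all. Leaving out any 1 array gave 0 to 0 members and 0 to 0 list genes in either source, as it did for all 24436 probes, with the lone array of a line assumed to vary like the other line. Fos was then between 1.14 and 1.28 in the table and Fosb between 0.88 and 0.89, and neither passed (limma adjusted p up to 0.0428). Why the counts moved was not tested.

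Scanner values changed sign for 12 pairs of a member and an alternative. With 1 array left out the ranges were 0.15 (without shGR-19 replicate 2) to 1.17 for Fos, 0.02 to 0.24 for Myc, -0.33 to 0.22 for Fosl2, -0.31 to 0.77 for Junb, -0.11 to 0.99 for Fosl1, -0.27 to 0.49 for Jun, -0.15 to 0.16 for Jund, -1.13 to 1.01 for Egr2 and -0.092 to 1.44 for Fosb. With the mean of its probes Fosl2 was 0.014. In the table only Fosl2 changed sign, from -0.042 to 0.029 with 1 column left out. Of the other comparisons of member values with an alternative, 146 of the scanner files and 89 of the table kept direction and call, 14 in the table lost the call and 15 gained it, and of the list genes named 100 lost it and 54 did not. With the replicate block, same-numbered arrays deviated together at r = 0.57 in the scanner files and 0.06 in the table. The labels do not say that the numbers pair the samples. The fit had a value of 0 members in both sources, and at an adjusted p below 0.05 it gave 6 members in the table (30.0% of all probes).

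All members were detected on every array. With normexp and its offset of 50 the scanner difference was 0.35 for Fos, 0.42 for Fosb and 0.04 for Jun, against 0.66, 0.67 and 0.11. That offset is about the size of the dimmest signals (45.3 for Fos on EV-50 replicate 1). It narrows log2 differences of dim probes by itself, so the part of the background correction cannot be told from that of the offset. A line is 1 clone and the arrays are 2 per line.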

Other observations

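Myoepithelial and immune markers were read beside the members. Of 6 myoepithelial markers, 5 were tested, and 1, the basal keratin gene Krt14, fell in the value table by 1.13 on the log2 scale (standard error 0.049, limma adjusted p = 0.00332). Its scanner pairs were 0.02 for the arrays labelled replicate 1 and -1.18 for those labelled replicate 2. Of 7 immune markers, Itgam and Ptprc were not well above background on any array, and 1 of the 5 tested, Lyz2, a lysozyme gene, rose by 0.76 in the table (limma adjusted p = 0.00676), with scanner pairs of 0.23 and -0.30. Of 4 endothelial markers Cdh5 and Pecam1, and of 4 adipocyte markers Adipoq and Lep, were well above background on no array. Of 11 epithelial markers, 10 were tested and 0 passed (limma, value table), where 12.6% of all genes did. At an unadjusted p below 0.05 there were 6, against 48.4% of all probes.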
